A study of Homo sapiens with 47 samples.

Results

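The change of long-term cultures of human posterior neural progenitors between the fifth and the eighth passage was examined. WA09 (H9) cells, an established human embryonic stem cell line, had been turned into neuromesodermal progenitor (NMP)-like cells and then passaged as mixed cultures of pre-neural progenitors (PNPs) and neural crest (NC) cells. The 6 libraries compared were the unsorted whole cultures at P5 and P8, with 3 independent differentiations (r1, r2 and r3) at each passage, chosen by their labels out of 47 libraries in the series. Both passages carried the same additions, CHIR-99021 (which activates WNT signalling), FGF2, AGN193109 (which blocks retinoic acid receptors) and Y-27632, in N2B27 medium without vitamin A, so that passage was the labelled difference. All libraries came from 1 cell line, and each experiment was sampled at both passages, so the comparison was made within experiments. At P5 and P8, TrypLE had also been used to detach the epithelial (EPI) and mesenchymal (MES) cells of these cultures selectively, and the 12 enriched fractions served for comparison.

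In the embryo, the spinal cord and part of the neural crest grow out from progenitors at the tail end. These progenitors switch on *HOX* genes in the order in which the genes lie in their clusters, so that low paralogue numbers mark the hindbrain and neck and high ones the lumbar and sacral levels, with the *HOX13* genes last. GDF11, a TGF-beta family ligand, promotes the change from trunk to tail, and LIN28 proteins, which block maturation of the let-7 microRNAs, are known to keep tail progenitors growing.

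Expected counts, the reads that RSEM assigns to each gene, summed to between 39152884 and 60904644 per library. Levels are given as normalized counts, which are scaled for library size and composition and can be compared between libraries for 1 gene but not between genes. A gene was called when the adjusted p of edgeR's quasi-likelihood test with the experiment as a block was below 0.05. At P8, 127 genes rose and 57 fell, 184 in all or 1.03% of the 17899 genes tested, and all 184 moved in the same direction in the 3 experiments, as did 4304 of all genes tested in the positive and 3459 in the negative direction. A test within experiments favours such genes, so this is a description of the calls. The median fold change of the called genes was 1.84 on the log2 scale for those that rose and -2.29 for those that fell, against a median of 0.02 over all genes tested. The count depended on the experiments: 710 genes were called without r1, 54 without r2 and 0 without r3, where 1732 genes still had an unadjusted p below 0.05. None of the calls reached the stricter rule of an FDR below 1%, a fold of 2 and a mean of 100 normalized counts in edgeR, where the smallest adjusted p was 0.0232 and 3277 genes had an unadjusted p below 0.05, while 596 genes reached that rule in DESeq2.

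Among the calls whose level averaged 100 or more normalized counts in the 6 libraries, the largest rises included these, with *EVX2*, *HOTTIP* and *HOXA13* given with the *HOX* genes. *CXCL14*, which encodes a secreted chemokine, stood at 15.8, 34.8 and 17.3 normalized counts in r1, r2 and r3 at P5 and at 889, 7069 and 5475 at P8. Its lowest P8 library was far above its highest P5 library, and the log2 fold change was 7.35 ± 0.49 (SE, adjusted p = 0.0232, edgeR). *EMP1*, an epithelial membrane protein gene, went from 78.2, 239 and 123 to 1190, 9906 and 14113, a log2 fold change of 5.41 ± 0.61 (SE, adjusted p = 0.04, edgeR). *ANXA1*, which encodes a calcium-dependent membrane-binding protein, went from 80.6, 161 and 17.3 to 727, 5790 and 751. This was a change of 4.52 ± 0.51 (SE) on the log2 scale (adjusted p = 0.04, edgeR), and the P5 and P8 values did not overlap. Over all genes tested, P8 lay above P5 without overlap in 12.1% and below it in 8.64%. *CAVIN1*, needed to form caveolae, rose by 4.43 on the log2 scale, *CCN4*, a WNT-induced matricellular gene, by 4.33, *ACTA1*, skeletal muscle actin, by 4.31, *CREB5*, a transcription factor of the CREB family, by 3.91 and *IL32*, a cytokine gene, by 3.72. *ABCC9*, a subunit of ATP-sensitive potassium channels, had 3 or fewer reads in every P5 library and reached 33.3, 610 and 98.3 normalized counts at P8. Against a floor of 3 reads per library it was at least 14.1-fold higher in r1, 187-fold in r2 and 32.2-fold in r3.

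The largest falls under the same limit, except *EVX1*, given with the *HOX* genes, included these. *SPOCK3*, which encodes a matrix proteoglycan, stood at 381, 138 and 666 normalized counts at P5 and at 25.5, 4.33 and 27.2 at P8. All its P8 libraries lay below all its P5 libraries, with a log2 fold change of -4.41 ± 0.31 (SE, adjusted p = 0.0232, edgeR). *SLC7A14*, an amino acid transporter family member, went from 306, 191 and 227 to 5.68, 10.4 and 6.27, and *SLC38A5*, an amino acid transporter, had a log2 fold change of -3.56. *GABRA4*, a GABA-A receptor subunit, stood at -3.64 on that scale, *KCNIP1*, which modulates potassium channels, at -3.34 and *UNC5C*, a netrin receptor of axon guidance, at -2.88. *ABCA9*, a lipid transporter family member, went from 416, 311 and 659 to 45.4, 25.1 and 61.7, and *SPAG6*, a gene of the ciliary axoneme, from 208, 278 and 586 to 29.8, 29.4 and 32.4. *ANK1*, which links membrane proteins to spectrin, went from 2186, 251 and 260 to 199, 27.7 and 25.1. The change was -2.71 for *PAX5*, a paired-box transcription factor.

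**Figure D1:**
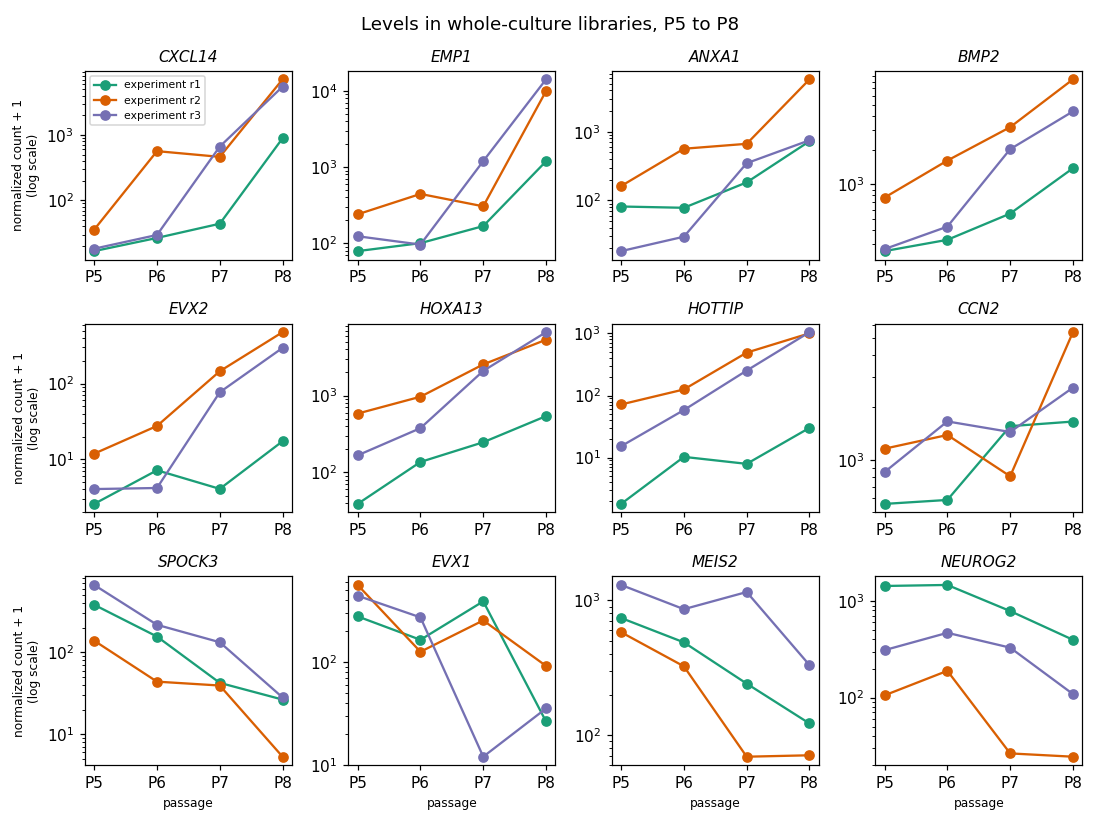
Normalized counts plus 1 (log axis, own range in each panel) of 12 called genes in the whole-culture libraries of P5, P6, P7 and P8, with 1 line per experiment. In each of the 12 genes and 3 experiments the P8 value lies on the same side of the P5 value, and r1 is lowest at P8 in all 8 genes that rose.

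The intermediate passages were not used to choose these genes. The mean level moved in the called direction at each step from P5 through P6 and P7 to P8 in 107 of the 127 genes that rose (84.3%) and in 45 of the 57 that fell (78.9%). Over all genes tested, the same held for 30.3% of those with a positive and 26.3% of those with a negative fold change. Since these means share the P5 and P8 libraries with the test, the shares are a description. Experiment r1 had the smallest change of the 3 in 80 of the 127 genes that rose and in 23 of the 57 that fell, and in 4849 of all 9416 genes with a positive and 4442 of all 8483 with a negative fold change.

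Among the *HOX* genes, the most posterior group stood apart in size. The 6 genes of paralogue groups 12 and 13 had fold changes between 2.70 and 4.95 on the log2 scale with a median of 4.11, and all 6 were higher at P8 in each experiment. 1 of them was called, against 0.71% of all genes called higher, and 5 had an unadjusted p below 0.05. *HOXA13* (chromosome 7, 27193503 to 27200106, GRCh38) rose from 37.9, 582 and 166 normalized counts at P5 to 539, 5328 and 6685 at P8. Its P8 value in r1 lay below its P5 value in r2, so the groups overlapped although each experiment rose, with a log2 fold change of 4.11 ± 0.47 (SE, adjusted p = 0.04, edgeR). *HOXB13* had 12.6, 518 and 21.4 at P5 and 536, 3808 and 3681 at P8, with an adjusted p of 0.096 in edgeR. *HOXC13* had 62.4, 1428 and 158 against 2284, 5664 and 5842 (adjusted p = 0.0968, edgeR), and *HOXD13* had 130, 1444 and 211 against 2890, 4694 and 2720 (adjusted p = 0.0869, edgeR). The P5 library of r2 was the highest of its passage in all 4 *HOX13* genes.

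**Figure D2:**
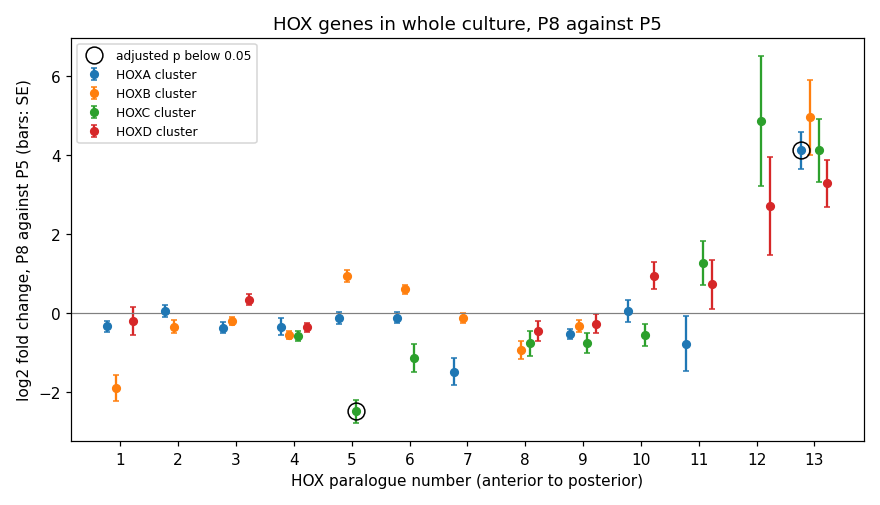
Log2 fold change of P8 against P5 in whole culture for the 39 HOX genes by paralogue number, with bars of 1 SE and colours for the 4 clusters. Groups 12 and 13 lie between 2.70 and 4.95, the other groups between -2.48 and 1.26, and circles mark the 2 called genes.

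The groups before them changed less. None of the 6 genes of groups 10 and 11 was called, with a median of 0.39 on the log2 scale. *HOXC10* had values of 12803, 15782 and 9187 at P5 and 14688, 6575 and 6132 at P8, and the values of *HOXA10*, *HOXD10*, *HOXC11* and *HOXD11* also overlapped between passages. *HOXB9* had a log2 fold change of -0.32 (adjusted p = 0.334, edgeR). Of 15 genes in groups 5 to 9, 1 fell, against 0.318% of all genes called lower, and the median was -0.46. That gene, *HOXC5*, went from 547, 405 and 559 to 156, 53.6 and 82.6 (log2 fold change -2.48 ± 0.29 SE, adjusted p = 0.0411, edgeR), and 59.9% of its annotated exon length is shared with other gene models of the *HOXC* cluster, so its reads are uncertain. None of the 12 genes of groups 1 to 4 was called, with a median of -0.34.

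Levels per length (TPM) gave the make-up of *HOX* expression. Groups 12 and 13 held 0.156%, 4.71% and 0.857% of the summed *HOX* TPM in r1, r2 and r3 at P5 and 7.48%, 18.6% and 20.5% at P8. Their share was 1.91% ± 2.45 (SD, n = 3) at P5, 4.63% ± 3.74 at P6, 9.16% ± 5.75 at P7 and 15.5% ± 7.04 at P8. The share of groups 5 to 9 was 52.9% ± 4.34 (SD, n = 3) at P5 and 39.6% ± 5.14 at P8, while that of groups 10 and 11 was 22.9% ± 4.42 and 25.1% ± 2.87. Taken from normalized counts, which are not per length, the share of groups 10 and 11 was 22.2% at P5 and 21.7% at P8, the other direction, and that of groups 12 and 13 was 2.81% and 23.4%.

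**Figure D3:**
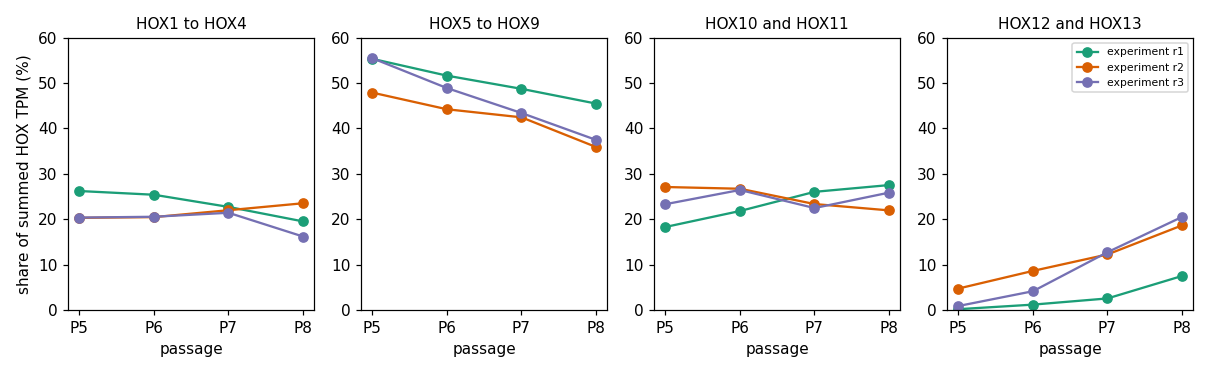
Share of the summed HOX TPM (percent) held by 4 ranges of paralogue groups at P5 to P8, with 1 line per experiment and a common axis from 0. The share of groups 12 and 13 lies between 0.156% and 4.71% at P5 and between 7.48% and 20.5% at P8.

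Transcripts next to the *HOX13* genes and partners of HOX proteins were also called. *HOTTIP*, a noncoding RNA that starts beside *HOXA13* on the opposite strand, rose from 0.79, 70.7 and 14.2 normalized counts to 29.1, 1004 and 1048 (log2 fold change 4.88 ± 0.56 SE, adjusted p = 0.0407, edgeR). Its exons overlap those of *HOXA13* in part, and the strand setting of the counting is not given in the sources used here, so reads of the pair may not be separable where they overlap. Of 18 noncoding RNAs of the *HOX* clusters tested, 2 rose, against 0.71% of all genes. *EVX2*, an even-skipped homeobox gene beside *HOXD13*, rose from 1.58, 10.9 and 3.05 to 16.3, 476 and 295 (log2 fold change 5.47 ± 0.57 SE, adjusted p = 0.0367, edgeR). Its P5 libraries of r1 and r3 were at or under the floor of 3 reads, so the size of this fold is uncertain. *EVX1*, the related gene beside the *HOXA* cluster, fell from 276, 559 and 439 to 25.5, 90.8 and 34.5 (log2 fold change -3.22 ± 0.29 SE, adjusted p = 0.0322, edgeR). Of 9 HOX cofactor genes, *MEIS1* and *MEIS2*, which encode TALE homeodomain partners of HOX proteins, fell, against 0.318% of all genes. *MEIS2* went from 739, 580 and 1300 to 121, 70.1 and 330 and *MEIS1* from 412, 196 and 557 to 71, 32.9 and 113, with no overlap in either gene.

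Of 15 trunk-to-tail signalling genes tested, 1 rose, against 0.71% of all genes, and none fell. *GDF11*, which was not called, stood at 10854, 13407 and 8991 at P5 and at 13946, 14724 and 11050 at P8, a log2 fold change of 0.26 ± 0.09 (SE, adjusted p = 0.243, edgeR). *SMAD3*, which carries signals of the TGF-beta and GDF11 receptors, rose from 5922, 5656 and 5139 to 9975, 9613 and 8136 and was the called gene (log2 fold change 0.73, adjusted p = 0.0407, edgeR). *LIN28A* stood at 65291, 62577 and 43333 at P5 and at 55469, 12792 and 6020 at P8 (log2 fold change -1.82, adjusted p = 0.195, edgeR). It was low in r2 and r3 at P8 and close to its P5 level in r1. *LIN28B* stood at 9430, 10528 and 14393 and at 7326, 3801 and 3442 (adjusted p = 0.151, edgeR), and none of the 9 genes of the LIN28 and let-7 list was called.

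Progenitor markers were mostly not called. Of 18 caudal progenitor genes tested, 1 rose and 1 fell, *EVX2* and *EVX1* given above, where 0.71% of all genes rose and 0.318% fell. The median of these 18 was -0.80 on the log2 scale. *SOX2*, a neural progenitor factor, stood at 12354, 9624 and 7783 at P5 and at 18020, 8157 and 5882 at P8, and *CDX2*, a factor of the posterior body axis, at 14219, 11407 and 7179 and at 14012, 4813 and 2539. Both were plainly expressed at both passages and their values overlapped. Within experiments *CDX2* was lower at P8 in each, only slightly in r1, while *SOX2* was higher in r1 and lower in r2 and r3. *NKX1-2*, of caudal progenitors, had a log2 fold change of -2.56 (adjusted p = 0.219, edgeR) and *FGF8* of -1.27 (adjusted p = 0.172). *TBXT*, the mesoderm and tail bud gene brachyury, stood at 310, 197 and 146 and at 90.1, 1116 and 90.9, so that its P8 mean rested on r2. *WNT3A* had at most 3.16 normalized counts at P5 and 24.1 to 34.6 at P8 (adjusted p = 0.0567, edgeR). Of 27 neural progenitor genes tested, 3 fell, against 0.318% of all genes, and none rose. On the log2 scale the change was -1.82 for *NEUROG2*, a proneural factor, -1.80 for *POU3F2*, a neural POU factor, and -1.26 for *ZIC1*, of the dorsal neural tube. *NEUROG2* went from 1434, 104 and 309 to 396, 23.4 and 108, so its groups overlapped. *PAX6*, a marker of committed neural progenitors, was too low to be tested, with 32.4 normalized counts in 1 P5 library and at most 2.09 in the other 5. *DLL3*, a Notch ligand gene, fell (log2 fold change -1.95), as did *DPPA4*, a pluripotency-associated gene (-2.29).

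Neural crest genes had fold changes of both signs, more of them positive. Of 26 tested, 3 rose, against 0.71% of all genes, and none fell, with a median of 1.12 on the log2 scale. At an unadjusted p below 0.05 in edgeR, 15 had a positive and 4 a negative fold change. Over all 17899 genes tested, 2087 and 1190 did. *TFAP2C*, an AP-2 transcription factor, rose from 1085, 1570 and 871 to 3220, 6566 and 4793 without overlap (log2 fold change 2.03 ± 0.19 SE, adjusted p = 0.0338, edgeR). *SOX9*, a factor of crest formation and cartilage, rose from 1145, 2099 and 3694 to 2538, 9460 and 15744, and *ITGA4*, an integrin subunit of migrating crest, from 218, 703 and 899 to 710, 2136 and 5611. In both genes the P8 value of r1 lay below the P5 value of r3, so the passages overlapped. *SOX10* had a log2 fold change of -0.29 (adjusted p = 0.57, edgeR) and *SNAI2* of 0.51 (adjusted p = 0.126), while *TFAP2A* stood at 451, 1435 and 3770 at P5 and at 115, 197 and 1314 at P8 (adjusted p = 0.0534, edgeR). Since these are bulk libraries, fewer or more cells of a type and less or more RNA per cell cannot be told apart.

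A few matrix and adhesion genes rose. *SPARC*, a collagen-binding matrix protein gene, went from 50796, 113985 and 50306 to 142683, 347858 and 142172 and *TNC*, tenascin C of migrating crest and injured tissue, from 7077, 8188 and 3963 to 21878, 26897 and 15383. These were 2 of 25 mesenchymal and matrix genes, against 0.71% of all genes called higher, and none of the 25 fell, with a median of 0.50. *CLDN6*, a tight junction gene of early epithelia, rose by 2.41 on the log2 scale and was the single called gene of 10 epithelial genes tested. All 10 had positive log2 fold changes, from 0.08 to 2.65, with a median of 1.08. The largest was that of *CDH1*, E-cadherin (2.65, adjusted p = 0.0663, edgeR), which averaged only 22.3 normalized counts in the 6 libraries.

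**Figure D4:**
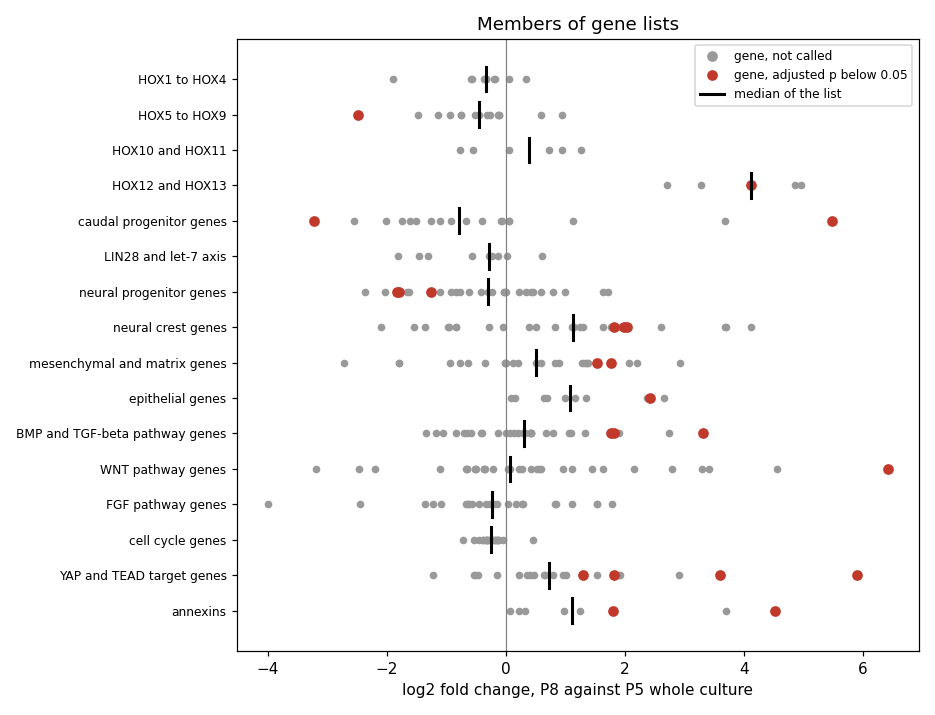
Log2 fold change of P8 against P5 in whole culture for the tested members of 16 gene lists, with called genes in red and the median of each list as a black line. The median is 4.11 for groups 12 and 13 of the HOX genes, 1.12 for neural crest genes and -0.25 for cell cycle genes, against 0.02 for all genes tested.

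Several signalling genes rose. Of 30 BMP and TGF-beta genes, 3 rose, against 0.71% of all genes, and none fell. *BMP2* went from 258, 764 and 268 to 1384, 8376 and 4377 (log2 fold change 3.31 ± 0.33 SE, adjusted p = 0.036, edgeR) and *BMP7* from 2032, 4930 and 2926 to 6500, 14891 and 11918 (log2 fold change 1.77 ± 0.12 SE, adjusted p = 0.0232, edgeR), with no overlap between passages. *SFRP4*, which encodes a secreted WNT inhibitor, was the single called gene of 33 WNT genes. Against the same floor it was at least 4.79-fold higher in r1, 49.8-fold in r2 and 15.4-fold in r3. In the retinoic acid list of 16 genes, *DHRS3*, which reduces retinal, rose by 3.69 and *NR2F1*, a nuclear receptor induced by retinoic acid, fell (log2 fold change -2.55), where 0.71% of all genes rose and 0.318% fell. None of 24 FGF genes was called, though 5 had an unadjusted p below 0.05 in edgeR with a positive and 8 with a negative fold change. Over all 17899 genes tested, 2087 and 1190 did. *CDKN1A*, which encodes the cell cycle inhibitor p21, rose from 1401, 1234 and 1284 to 2627, 2965 and 2690, and none of 24 cell cycle genes was called, with a median of -0.25. *GADD45B*, a stress-induced gene, rose by 1.88 and *ADM*, a hypoxia-induced peptide gene, by 2.69.

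A list of 22 YAP and TEAD target genes was set up after these results were seen, because *CCN2* and *ANKRD1* were among the calls, and its counts are a description. 4 of its members rose and none fell, with a median of 0.72. The 4 include *CCN2* and *ANKRD1*, whose calls prompted the list, and *ANKRD1* had at most 4.35 normalized counts at P5. The count therefore cannot be compared with the 0.71% of all genes that rose. *CCN2*, a matricellular gene, went from 556, 1157 and 849 to 1659, 5430 and 2602, and *ANKRD1* from 0.79, 4.35 and 0 to 37.6, 264 and 25.1. *AMOTL2*, a regulator of this pathway, went from 2521, 2767 and 2039 to 5274, 8347 and 4818, and *IGFBP3*, which binds insulin-like growth factors, from 167, 123 and 79.3 to 944, 1684 and 1865. The same holds for a list of 8 tested annexin genes, of which *ANXA1* and *ANXA2* rose and the median was 1.11.

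The sequence before the start of 4 genes that rose is shown because TEAD and AP-1 factors are known to bind short motifs near such genes. The 250 bases before the RefSeq start (GRCh38.p14, 5′ to 3′ on the gene's strand) of *CCN2*, chr6:131951373-131951622, and *ANKRD1*, chr10:90921088-90921337, both on the minus strand, have each GGAATG, the core of the TEAD motif, in capitals.
CCN2: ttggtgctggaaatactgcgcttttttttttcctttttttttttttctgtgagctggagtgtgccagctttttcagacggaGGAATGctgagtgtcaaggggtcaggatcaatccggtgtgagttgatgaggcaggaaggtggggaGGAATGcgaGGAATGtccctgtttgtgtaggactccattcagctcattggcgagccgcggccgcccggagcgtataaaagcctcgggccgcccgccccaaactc
ANKRD1: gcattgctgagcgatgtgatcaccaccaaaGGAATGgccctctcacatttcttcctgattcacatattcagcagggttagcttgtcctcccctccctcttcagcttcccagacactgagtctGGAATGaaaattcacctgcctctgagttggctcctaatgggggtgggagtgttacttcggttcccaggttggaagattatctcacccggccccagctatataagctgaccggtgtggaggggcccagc
Windows around TGAGTCA, in capitals, the reverse complement of the AP-1 motif TGACTCA, are given for *CXCL14*, chr5:135579047-135579113 on the minus strand, and *EMP1*, chr12:13196521-13196587 on the plus strand.
CXCL14: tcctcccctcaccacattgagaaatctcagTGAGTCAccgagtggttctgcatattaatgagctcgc
EMP1: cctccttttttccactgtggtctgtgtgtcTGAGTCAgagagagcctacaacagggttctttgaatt
Both strands of the 250 bases were searched. GGAATG or its reverse complement CATTCC was present in 11.9% of all 35116 promoters, in 13.1% of the tested genes with a promoter, in 20 of the 105 genes with a promoter that rose (19.0%) and in 6 of 46 that fell. TGACTCA or TGAGTCA was present in 4.20% of all promoters, in 4.03% of the tested genes, in 17 of the 105 genes that rose (16.2%) and in 1 of 46 that fell (2.17%). The motifs and the 4 genes were picked after the calls were known, no test was made, and a match shows letters and not binding.

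The fractions allowed the same change to be read in cells detached as epithelial or mesenchymal. They came from the same 3 experiments and so are not further replicates. In a fit of all 18 libraries of P5 and P8, 16.9% of 19379 genes were called between P8 and P5 in the epithelial fraction (10.3% higher, 6.58% lower) and 17.5% in the mesenchymal one (10.7% higher, 6.87% lower). With the experiment as its only block, this fit takes the 3 libraries of 1 experiment and passage as independent. It has 10 residual degrees of freedom, against 2 for the 6 whole cultures. Its counts of calls and its adjusted p may therefore overstate the evidence and are a description. Of the 127 genes that rose in whole culture, all had a positive fold change in both fractions, and 118 were called higher in the epithelial and 120 in the mesenchymal fraction. Among all 9416 genes with a positive fold change in whole culture, the sign was the same for 7943 in the epithelial and 7646 in the mesenchymal fraction. All of the 57 that fell had a negative one, with 42 and 47 called lower, and among all 8483 genes with a negative fold change the sign was the same for 6896 and 6681. *CXCL14* rose by 7.91 in the epithelial and 7.39 in the mesenchymal fraction (log2). *SOX9* had a log2 fold change of 2.07 (adjusted p = 0.000345, edgeR) in the epithelial and 0.61 (adjusted p = 0.0650) in the mesenchymal fraction, and *NEUROG2* of -1.65 (adjusted p = 0.0872) and -0.01 (adjusted p = 0.993). These adjusted p are from the 18-library fit and carry the limit given above. The difference between the fractions was not tested. The difference of the change between whole culture and a fraction was tested, and edgeR called 0 genes for either fraction, with 214 and 509 genes at an unadjusted p below 0.05. That is fewer than the 969 this threshold gives by chance if no gene differs, and this fit blocks on the experiment and leaves out that whole culture and fractions of 1 experiment also share a passage. With each experiment and passage as a block, an alternative added after these values were seen, edgeR again called 0 genes, with 557 for the epithelial and 1328 for the mesenchymal fraction at an unadjusted p below 0.05 and a smallest adjusted p of 0.40 for the mesenchymal one. The absence of calls does not show that the changes were equal.

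**Figure D5:**
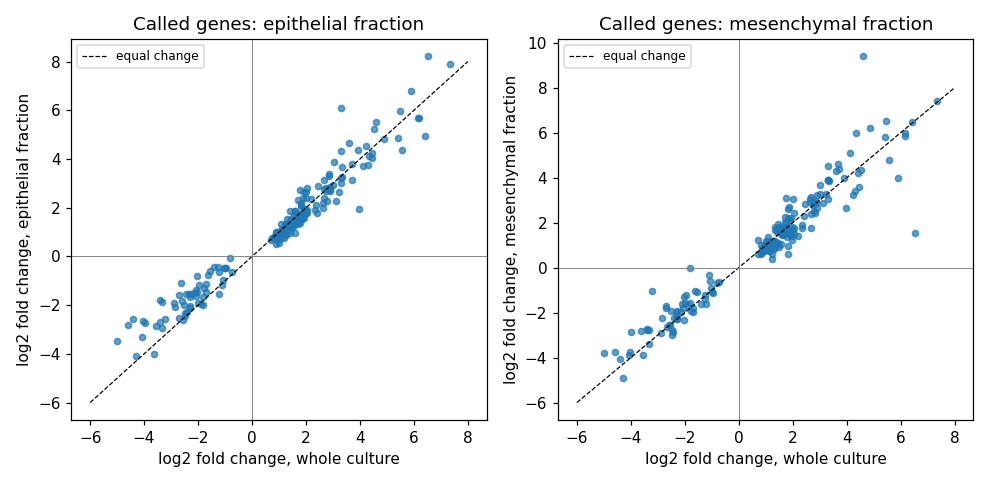
Log2 fold change of P8 against P5 in the epithelial (left) and mesenchymal (right) fraction against that in whole culture for the 184 called genes, with a dashed line of equal change. All points have the same sign on both axes.

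Genes that separate the fractions were then read in whole culture. At P5, 142 genes (0.804% of those tested) were higher in the mesenchymal and 86 (0.487%) in the epithelial fraction in edgeR, by an FDR below 1%, a fold of 2 and a mean of 100. The paper reported a longer list for each P5 fraction at like limits with DESeq2. The values below therefore cover only part of the genes that may differ between the fractions. In whole culture the first set had a median change of 0.08 on the log2 scale with 4 genes called higher and 3 lower, and the second a median of -0.01 with 2 called higher, where 0.71% of all genes were called higher and 0.318% lower. The mesenchymal set held 0.577%, 0.824% and 1.04% of all normalized counts in r1, r2 and r3 at P5 and 0.641%, 1.04% and 1.27% at P8. The epithelial set held 0.628%, 0.468% and 0.323% at P5 and 0.695%, 0.445% and 0.329% at P8. The share of the mesenchymal set was higher at P8 in each of the 3 experiments, and that of the epithelial set was higher in r1 and r3 and lower in r2. No test was made of these sums.

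Of 54 tested markers of other cell types, *TYRP1* and *RAX* rose and *DPPA4* fell, 3 in all, against 1.03% of all genes tested. *DPPA4* was 1 of 6 pluripotency markers tested, of which *L1TD1* was the most abundant (7006, 10289 and 8745 normalized counts at P5, 7807, 3983 and 4512 at P8, not called). All 6 had negative log2 fold changes, from -3.51 to -0.73, with a median of -1.67. *TYRP1*, a pigment cell gene, rose from 3.16, 39.2 and 12.2 to 34.8, 606 and 65.9, the single called gene of 8 Schwann cell and melanocyte markers tested (0.71% of all genes were called higher), whose summed level was 2739 to 3868 at P5 and 4803 to 13989 at P8. *PMP22*, the most abundant of them, stood at 745, 1041 and 682 and at 983, 3691 and 3735 (adjusted p = 0.154, edgeR). *RAX*, a gene of the eye field, rose from 0.79, 16.3 and 2.03 to 34.1, 289 and 74.2 and was the called gene of 7 forebrain and midbrain markers tested, of which *LHX2* was the most abundant (log2 fold change -0.06). None of 4 tested members of the muscle list was called, with log2 fold changes from -0.54, in *TNNT1*, the most abundant, to 1.06 and a median of 0.65. The muscle actin gene *ACTA1*, which rose, is not in that list. Paraxial, lateral plate and intermediate mesoderm, endoderm, blood vessel and surface ectoderm markers gave no call. *MEOX2*, *LMX1B*, *EYA1*, *CXCR4*, *TEK* and *DLX3* are among them. Only 4 of 12 lateral plate, 4 of 7 intermediate mesoderm, 2 of 10 endoderm and 2 of 8 surface ectoderm markers were tested. The lateral plate log2 fold changes ran from -8.70 to 3.12. Of the intermediate mesoderm markers, 3 had a negative and 1 a positive fold change at an unadjusted p below 0.05 (edgeR). The absence of calls does not show an absence of change. The part of these markers in the results above was not tested.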

How the data were processed

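The authors trimmed reads with cutadapt 1.16, aligned them with STAR 2.5.2b and quantified genes with RSEM 1.3.0 on GRCh38, per the submitters' processing notes, and deposited expected counts and TPM per gene for each library. The annotation release, strand setting and read filters are not given in the sources used here. Expected counts were rounded to whole numbers and tested with edgeR 4.0.16 (glmQLFit, glmQLFTest), with TMM factors over 47 libraries, filterByExpr and Benjamini-Hochberg adjustment over all genes tested. The replicate number entered as a block, since it marks an independent differentiation. Deviations of same-numbered libraries of P5 and P8 from their passage mean correlated at 0.41, 0.12 and 0.45 in r1, r2 and r3. Those of differently numbered libraries correlated at -0.41 to 0.04, so r2 stood only a little above them. The block left 2 residual degrees of freedom. Each SE of a log2 fold change is the size of that change divided by the square root of the F statistic of its test. It therefore restates the test and is not a separate measure of the spread between experiments. Alternatives used DESeq2 1.42.0, other scalings, filters and library sets. The named genes were the 12 largest changes in each direction among calls with a mean of 100 and 1 direction in all experiments, up to 4 called members of each list, the most abundant marker of other cell types, and a set of axial genes. Of these, 2 are not reported here. The members and lists were chosen with earlier results of these data known. In simulated counts the fit was checked to recover set changes. These counts were drawn with less spread than the fit found in the data. The check therefore does not show how many changes the fit finds or misses here. Coordinates are from GENCODE 29 on GRCh38 and promoters from RefSeq.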

Additional observations from a re-analysis of the deposited data

How the results depend on the processing

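The count of 184 called genes stayed within 1.5 times under both other scalings and the filter of 10 counts in every library, but was 891 with no filter on low counts, 1546 with DESeq2, 1258 with the 12 whole cultures of P5 to P8, 55 with all 35 whole cultures and 0 at an FDR below 1%, alone or with the fold and mean limits. With no replicate block it was 3, so the calls rest on the pairing. Leaving out 1 experiment gave 0 to 710. DESeq2 and the fit with no filter kept all 184 genes, and the 12-library fit 168. Called members of the fixed lists numbered 31, and 103 with no filter, 158 with DESeq2, 100 with 12 and 4 with 35 whole cultures, 0 with no replicate block and 0 to 92 with 1 experiment left out. Taken from normalized counts in place of TPM, the share of *HOX* groups 12 and 13 at P8 was 23.4%, and that of groups 10 and 11 was 22.2% at P5 and 21.7% at P8, so its direction turned. Genes that were not called changed sign: *SOX2* (0.11 with no block, 0.012 with 12 libraries, and -0.32 to 0.15 leaving out 1 experiment), *SOX10* (0.070 with no block), *TBXT* (0.99 with no block, 0.72 with 35 libraries, -1.24 to 0.98 leaving out 1 experiment), and, leaving out 1 experiment, *HOXA10* (-0.22 to 0.45), *HOXD11* (-0.12 to 1.41), *DLX3* (-1.35 to 0.19), *LHX2* (-0.22 to 0.16) and *MEOX2* (-0.53 to 1.21). The cause was not tested. The test of a difference between whole culture and fractions gave 0 calls under each alternative, also with each experiment and passage as a block, which was added after seeing the data, and this does not show equal changes. The list of fraction genes at P8 in place of P5 held 0 genes and gave no value. The filter on low counts left 17899 of the 58051 genes listed, and how many of the others depth kept out was not tested.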
